A study of Mus musculus with 24 samples.

Results

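Poly(A)-selected RNA of whole lysates of the mouse dorsal striatum (DS) was compared between rpS6 knockin mice and their wild-type littermates. The 6 libraries (3 wild-type and 3 knockin) were taken by their column names from the table of raw read counts that holds all 24 libraries of the study. The other 18 libraries come from the heavy polysomal fractions of the same DS lysates and from lysates and heavy polysomal fractions of the nucleus accumbens (Acb). The knockin mice carry alanine in place of all phosphorylatable serines of rpS6 on both alleles, and no mouse was given a drug. Animals were males and females of a mixed C57Bl/6/Sv129/ICR background, bred from heterozygous crosses, and per the study's methods a biological replicate pooled 4 mice, while other places in the paper give other numbers. The mutation is carried by every cell of the body from conception. The lysate RNA is the cytosolic RNA kept aside before the sucrose gradient, so that it measures steady-state levels and not ribosome loading.

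Ribosomal protein S6 is a component of the small ribosomal subunit, and its C-terminal tail is phosphorylated by the S6 kinases downstream of mTOR complex 1 and by other kinases such as those of the RSK family. In striatal neurons this phosphorylation follows dopaminergic and glutamatergic stimulation and is widely used as a sign of neuronal activity. The DS consists mainly of medium spiny neurons, GABAergic projection cells of the direct and indirect pathways, which receive glutamatergic input from the cortex and thalamus. The question put to the lysates was whether the loss of these phosphorylation sites changed steady-state mRNA levels. The replaced serines lie in the last coding bases of Rps6, on the minus strand of chromosome 4 of GRCm38 at chr4:86854705-86854755, in exon 5 of 5. The reference sequence of these 51 bases, from the GENCODE M21 transcript, codes for codons 233 to 249 of 249 and is shown because it is the site of the mutation. The 5 serine codons replaced in the knockin are in capitals, and the knockin allele itself was not read here.
Rps6 tail, reference: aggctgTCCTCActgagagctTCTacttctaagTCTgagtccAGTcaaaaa

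The 6 libraries held 13762168 to 20259509 reads assigned to genes, and 15601 of 24079 genes had at least 15 reads in all and were tested. Bc1, a short noncoding RNA of dendrites, took 15.2 to 24.8% of the reads of a library. Markers of medium spiny neurons were abundant in all 6, with a summed level of 14008 to 16417 counts-per-million (CPM) in wild-type and 14459 to 15599 in knockin libraries. These are CPM of the reads assigned to genes, after TMM scaling. Markers of septal, pallidal and hypothalamic neurons together were low, with 21.0 to 33.8 CPM in wild-type and 20.7 to 28.5 in knockin libraries. Those listed for cortical excitatory neurons were not low, with 2766 to 3321 CPM in wild-type and 2444 to 2594 CPM in knockin libraries. Without Nrgn they summed to 994 to 1252 CPM in wild-type and 1015 to 1140 CPM in knockin libraries. P-values measure the spread between pools of mice, and in bulk tissue fewer cells of a type cannot be told apart from less RNA per cell.

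The level of Rps6 mRNA did not pass the test. It was 315, 308 and 247 CPM in the wild-type and 297, 275 and 284 CPM in the knockin libraries, 290 ± 37.2 against 285 ± 10.8 (SD, n = 3 each). The knockin range lay inside the wild-type range, and the log2 fold change was -0.02 with a standard error (SE) of 0.10 and an adjusted p of 0.980. The replaced codons cannot be seen in counts per gene, so that this is no check of the genotype.

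Few of the tested genes passed the adjusted threshold. By the quasi-likelihood test of edgeR, with p-values adjusted after Benjamini and Hochberg, 19 of 15601 genes, or 0.122%, passed an adjusted p of 0.05. Of these, 14 (0.0897%) were lower and 5 (0.032%) were higher in the knockin mice. At an unadjusted p under 0.05 the count was 1415 genes (9.07%), with 754 lower (4.83%) and 661 higher (4.24%). The median log2 fold change of all tested genes was -0.003, with 7740 genes above 0 and 7861 below. Among the 11607 genes with at least 50 reads per library on average, 15.2% had 2 genotypes whose values did not overlap, against 17 of the 19 genes that passed.

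**Figure D1:**
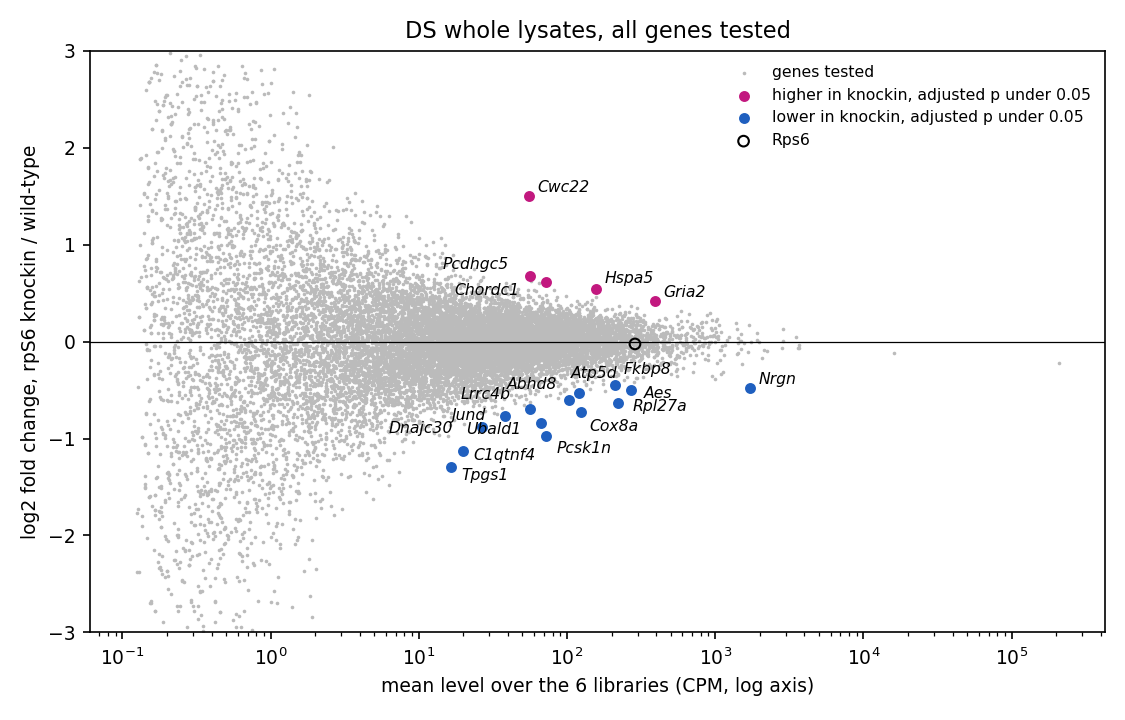
Log2 fold change (knockin over wild-type, vertical axis) against the mean level over the 6 libraries (CPM, logarithmic horizontal axis) for the genes tested in DS whole lysates, with the 19 genes past an adjusted p of 0.05 coloured and labelled, Rps6 circled, and 409 genes beyond 3 log2 units in either direction not drawn. The coloured genes sit between -1.30 and 1.50 on the log2 scale, and 14 of the 19 lie below 0.

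The gene with the lowest p was Cwc22, which codes for a splicing factor that is also needed to deposit the exon junction complex. It lies at chr2:77881159-77946356 in GRCm38. Its level was 44.9, 25.5 and 16.1 CPM in the wild-type and 68.8, 90.9 and 87.6 CPM in the knockin libraries. All knockin values were above all wild-type values, and the wild-type values themselves spanned a wide range. The log2 fold change was 1.50 (SE 0.19, adjusted p = 5.48e-06), and the adjusted p was 0.367 when the spread was estimated robustly.

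The other 4 genes that rose did so by less. Hspa5 (chr2:34772090-34776529), the endoplasmic reticulum chaperone BiP, was at 116, 103 and 168 CPM in wild-type and at 194, 193 and 174 CPM in knockin libraries, a log2 fold change of 0.54 (SE 0.12, adjusted p = 0.0451). The third wild-type library came close to the lowest knockin library, but the genotypes did not overlap. Gria2, the AMPA receptor subunit that limits calcium entry, was at 344, 341 and 321 CPM against 413, 461 and 468 CPM. Its gap between genotypes was wider than the spread within either, with a log2 fold change of 0.41 (SE 0.09, adjusted p = 0.0437). Chordc1, which codes for an HSP90 co-chaperone, was at 61.5, 51.9 and 58.3 CPM against 100.3, 81.5 and 80.2 CPM (log2 fold change 0.61, SE 0.13, adjusted p = 0.0432). Pcdhgc5, a clustered protocadherin of the neuronal surface, was at 44.2, 48.8 and 36.0 CPM against 54.9, 76.6 and 75.4 CPM (log2 fold change 0.68, SE 0.15, adjusted p = 0.0437). In both genes the lowest knockin library was above the highest wild-type library. Pcdhgc5 shares its constant exons with the other genes of its cluster, so that reads there do not tell these genes apart.

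Of the 14 genes that fell, Nrgn had the lowest p. It codes for neurogranin, a calmodulin-binding protein of the postsynapse, and lies at chr9:37544493-37552745. Its level was 1772, 2147 and 2069 CPM in wild-type and 1390, 1454 and 1451 CPM in knockin libraries. The knockin libraries were close to each other and below every wild-type library, and the log2 fold change was -0.48 (SE 0.08, adjusted p = 9.08e-04). Nrgn is also abundant in cortical excitatory neurons. The other 11 cortical markers listed summed to 994, 1105 and 1252 CPM in wild-type and 1054, 1140 and 1015 CPM in knockin libraries, which overlapped. Of the 12 markers 8 were below 0. Neurod2, a transcription factor of cortical excitatory neurons, was at 41.0, 55.3 and 52.3 CPM against 36.5, 36.4 and 33.5 CPM, without overlap (log2 fold change -0.48, adjusted p = 0.251).

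Rpl27a and genes that code for mitochondrial proteins were among those that fell. Rpl27a, a protein of the large ribosomal subunit, was at 229, 326 and 246 CPM in wild-type and 163, 150 and 204 CPM in knockin libraries (log2 fold change -0.63, SE 0.11, adjusted p = 0.00596). Cox8a, a subunit of cytochrome c oxidase, was at 112, 205 and 146 CPM against 90.8, 86.7 and 102.5 CPM (log2 fold change -0.73, SE 0.13, adjusted p = 0.00596). The knockin values of Cox8a were close together, and the second wild-type library was by far the highest. Atp5d, the delta subunit of ATP synthase, was at 136, 158 and 132 CPM against 111, 89.0 and 95.6 CPM, without overlap (log2 fold change -0.53, adjusted p = 0.0437). Dnajc30, a mitochondrial J-domain protein, was at 36.1, 35.0 and 33.0 CPM against 18.9, 16.8 and 20.8 CPM (log2 fold change -0.88, adjusted p = 0.0383), and the genotypes were well apart.

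Pcsk1n, which codes for proSAAS, an inhibitor of the prohormone convertase PC1, was at 58.2, 152 and 77.7 CPM in wild-type and 43.0, 48.4 and 55.0 CPM in knockin libraries. The genotypes did not overlap, but the first wild-type library was near the knockin libraries and the second was far above the other two (log2 fold change -0.98, SE 0.18, adjusted p = 0.00596). Tpgs1, a subunit of the tubulin polyglutamylase complex, had the largest decrease of the 14, from 19.9, 28.0 and 22.3 CPM to 6.99, 7.20 and 14.3 CPM (log2 fold change -1.30, SE 0.26, adjusted p = 0.0152). Jund, an AP-1 transcription factor, was at 39.0, 49.8 and 56.2 CPM against 24.0, 28.5 and 32.7 CPM (log2 fold change -0.76, adjusted p = 0.0451). Abhd8, Aes, Ubald1 and Fkbp8 also fell without overlap, with log2 fold changes of -0.60, -0.50, -0.84 and -0.44. Aes codes for a Groucho-family corepressor and Fkbp8 for an anchored immunophilin of the outer mitochondrial membrane. In the remaining 2 genes, C1qtnf4 and Lrrc4b, the lowest wild-type library lay within the knockin values. C1qtnf4 was at 14.8, 36.6 and 30.4 CPM against 13.02, 8.78 and 15.3 CPM (log2 fold change -1.13, adjusted p = 0.0437), and Lrrc4b, a synaptic adhesion protein, at 49.9, 77.6 and 80.8 CPM against 39.3, 38.2 and 50.5 CPM (log2 fold change -0.70, adjusted p = 0.0451).

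**Figure D2:**
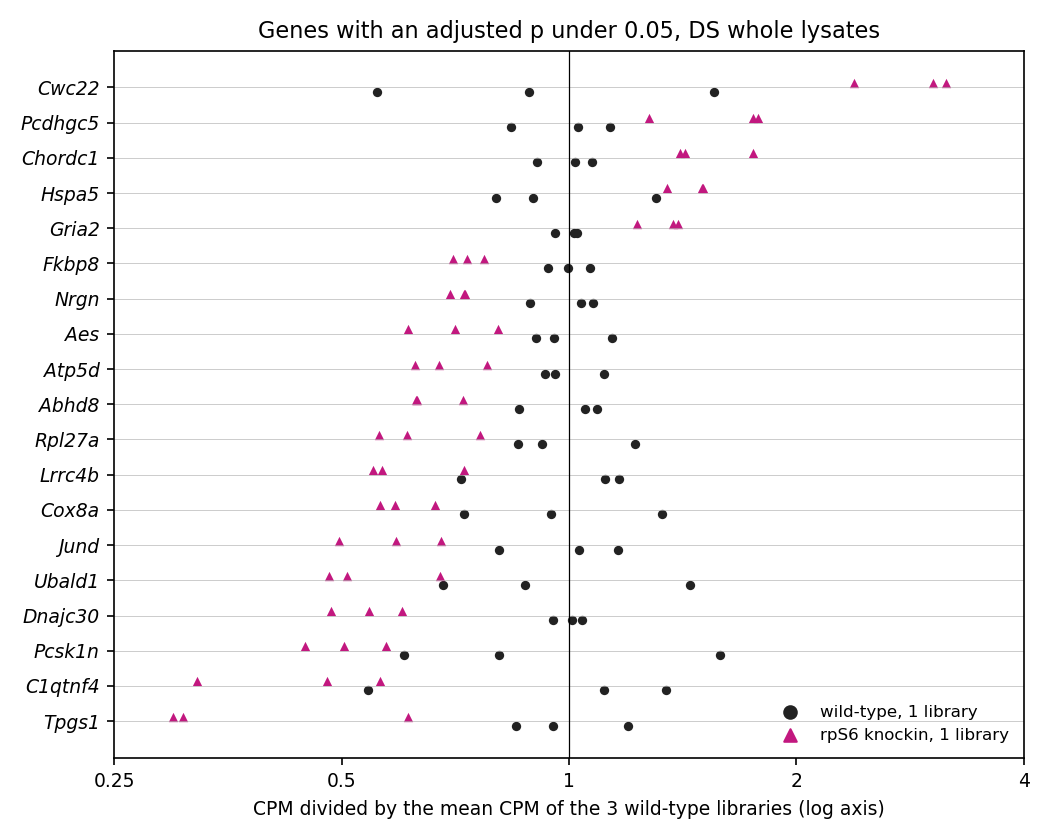
Level of each of the 19 genes past an adjusted p of 0.05 in every DS whole lysate library, divided by the mean CPM of the 3 wild-type libraries (logarithmic axis), with a circle for each wild-type and a triangle for each knockin library. The genotypes do not overlap in 17 of the 19 genes, and C1qtnf4 and Lrrc4b have a wild-type library among the knockin values.

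The count depended on single libraries. Without wild-type replicate 2 it was 2 genes, without wild-type replicate 1 it was 56, and without wild-type replicate 3 it was 25. Without knockin replicate 1, 2 or 3 it was 4, 1 and 7. Cwc22 passed in all 6 of these fits and Nrgn in 4. Rpl27a, Pcsk1n, Cox8a and Tpgs1 passed in 3, and each of the other genes in 1 or 2. When all 12 whole lysates of both regions were put in 1 fit, Cwc22 was the 1 gene that passed for the DS.

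The genes that fell had short and GC-rich transcripts. Their median transcript length was 1557 bases and their median GC content 59.8%, against 3183 bases and 50.2% over all tested genes. The 5 genes that rose had a median length of 4741 bases and a median GC content of 44.6%. The 11375 tested genes with at least 50 reads on average and a known transcript followed the same order in their medians. From the shortest to the longest quintile of these genes the median log2 fold change went from -0.09 to 0.12, and from the lowest to the highest quintile of GC content it went from 0.10 to -0.16. The shortest quintile held 11 and the GC-richest quintile 12 of the 14 genes that fell.
Single libraries differed in the same direction. Relative to the mean of the 6 libraries, the median of the GC-richest quintile was 0.008, 0.125 and 0.132 on the log2 scale in the wild-type and -0.056, -0.086 and -0.071 in the knockin libraries. Wild-type replicate 1 was thus between the other wild-type libraries and the knockin libraries. In the DS polysomal fractions the median log2 fold change of that quintile was -0.11, and in the Acb lysates it was -0.02. After smooth trends on length and GC content were removed from each library, 2 genes passed, Cwc22 and Rpl27a. The sign of the fold change was the same for all 19 genes, but many fold changes were smaller. Those of Gria2, Fkbp8 and Jund went from 0.41, -0.44 and -0.76 to 0.16, -0.15 and -0.37. Those of Nrgn, Abhd8 and Aes went from -0.48, -0.60 and -0.50 to -0.27, -0.32 and -0.26, and those of Atp5d, C1qtnf4 and Lrrc4b from -0.53, -1.13 and -0.70 to -0.31, -0.61 and -0.42. For Cwc22, Rpl27a and Hspa5 they were 1.47, -0.58 and 0.50. With the length trend alone removed 8 genes passed, and with the GC trend alone 3. The part of RNA quality or library preparation in these trends was not tested.

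**Figure D3:**
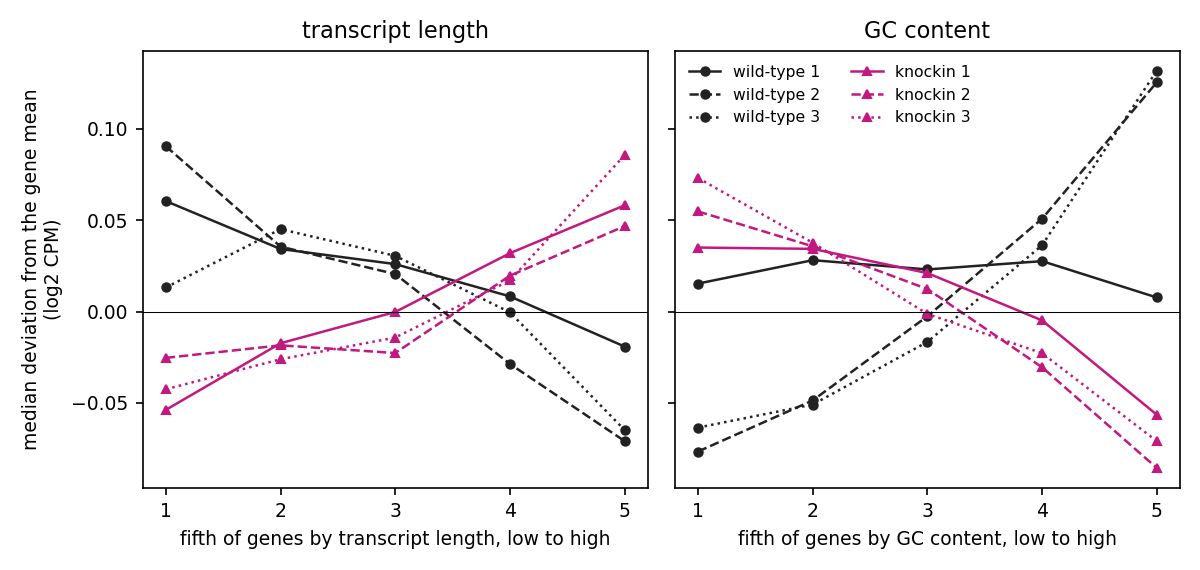
Median deviation of each DS whole lysate library from the mean of the 6 libraries (log2 CPM, vertical axes) by quintile of transcript length and by quintile of GC content, from low to high, with 1 line per library. Knockin libraries lie below the wild-type libraries in the GC-richest quintile, where the median log2 fold change is -0.16, and above them in the longest quintile, where it is 0.12.

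Genes of the pathway that acts on rpS6 gave no call. None of the 13 kinases and phosphatase subunits of rpS6 passed, with 6 above and 7 below 0 and a median log2 fold change of -0.01. Rps6ka3, the kinase RSK2, was at 101, 88.6 and 88.5 CPM in wild-type and 119, 120 and 123 CPM in knockin libraries, without overlap (log2 fold change 0.38, adjusted p = 0.209). Of 27 genes of the mTOR pathway none passed, 9 were above and 18 below 0, and the median was -0.06. Rheb, the GTPase that activates mTOR complex 1, was at 94.9, 79.6 and 74.9 CPM against 109.7, 107 and 94.4 CPM, which overlapped (log2 fold change 0.32, adjusted p = 0.383).

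Most genes of the cytosolic ribosome had fold changes slightly below 0. Of 32 tested proteins of the small subunit 26 were below 0, with a median of -0.07 and no gene past the adjusted threshold. Of 48 proteins of the large subunit 36 were below 0, with a median of -0.07 and 1 call, Rpl27a. At an unadjusted p, 5 small-subunit genes (Rps13, Rps16, Rps23, Rps26 and Fau) were lower and none higher. Of all tested genes, 4.83% were lower and 4.24% higher. Rps13 was at 151, 173 and 137 CPM in wild-type and 102, 118 and 122 CPM in knockin libraries, without overlap (log2 fold change -0.43, adjusted p = 0.113). These transcripts are short, with a median length of 882 bases for the small and 955 bases for the large subunit. With the length and GC trends removed, the medians were 0.02 and 0.03. Of 46 translation factors none passed, 30 were below 0 and the median was -0.05.

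The nuclear-coded genes of mitochondria were placed in the same way. Of all tested genes, 4.83% were lower at an unadjusted p under 0.05. In complex I, 25 of 36 genes were below 0, 8 were lower at an unadjusted p and none passed, with a median of -0.12. Ndufb10 was at 116, 131 and 129 CPM in wild-type and 82.9, 94.9 and 100.4 CPM in knockin libraries, without overlap (log2 fold change -0.43, adjusted p = 0.130). In complexes II to V, 25 of 41 genes were below 0, and 8 were lower at an unadjusted p, among them Cox8a and Atp5d, which passed. Of 77 mitochondrial ribosomal proteins 52 were below 0, with 10 lower at an unadjusted p and none past the adjusted one. Mrpl12 had the lowest p of these, at 33.6, 53.5 and 39.2 CPM against 23.2, 22.7 and 29.5 CPM (log2 fold change -0.74, adjusted p = 0.0912). With both trends removed the medians of these 3 lists moved from -0.12, -0.08 and -0.08 to -0.03, 0.01 and -0.03.
Of 31 genes of glycolysis and the tricarboxylic acid cycle, 27 were below 0 and none passed. Their summed level was 11055 to 11144 CPM in wild-type and 10416 to 10607 CPM in knockin libraries. The ranges did not overlap and the difference was small. With both trends removed 17 of the 31 were below 0, and the median went from -0.07 to -0.02. Gapdh was at 535, 516 and 792 CPM against 484, 479 and 483 CPM (log2 fold change -0.35, adjusted p = 0.172), with the third wild-type library apart from the rest.

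Subunits of the ionotropic glutamate and GABA receptors, which have long transcripts, lay on the other side. Of 34 genes 26 were above 0, with a median of 0.12, and Gria2 was the 1 call. Their summed level was 2836 to 3027 CPM in wild-type and 3147 to 3310 CPM in knockin libraries. With both trends removed the median was 0.03 and 21 genes were above 0. Gabrd, the delta subunit of extrasynaptic GABA-A receptors, was at 45.9, 54.6 and 69.9 CPM against 41.3, 35.1 and 46.5 CPM, which overlapped (log2 fold change -0.47, adjusted p = 0.270).

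Markers of the medium spiny neurons were balanced. Of 29 shared markers 14 were above and 15 below 0, with a median of 0.00, and none passed. Ppp1r1b, which codes for the dopamine-regulated phosphatase inhibitor DARPP-32, was at 1150, 1005 and 1179 CPM in wild-type and 1028, 955 and 886 CPM in knockin libraries (log2 fold change -0.22, adjusted p = 0.377). None of the 7 direct-pathway and 6 indirect-pathway genes tested passed. Adora2a, the adenosine receptor of indirect-pathway neurons, was at 150, 179 and 175 CPM against 149, 154 and 144 CPM, and Penk, their enkephalin precursor, at 509, 498 and 474 CPM against 490.5, 616 and 477 CPM. Their log2 fold changes were -0.17 and 0.10, with overlapping genotypes in both. Of 17 genes of striatal interneurons none passed.

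Chaperones were mostly above 0. Of 25 heat shock protein genes 18 were above 0 and 7 below, with a median of 0.09 that was 0.08 with both trends removed. Hspa5 was the 1 call, and Hsp90b1, the HSP90-family chaperone of the endoplasmic reticulum, was at 192, 203 and 201 CPM in wild-type and 247, 236 and 222 CPM in knockin libraries. The genotypes did not overlap (log2 fold change 0.24, adjusted p = 0.419). The cytosolic Hsp90ab1 had a log2 fold change of 0.08.
Of 31 immediate early genes, which neurons induce with activity, 15 were above and 16 below 0. Jund was the 1 call. At an unadjusted p, 7 genes were lower and Homer1 was higher, while 4.83% of all tested genes were lower and 4.24% higher. Egr1 was at 476, 449 and 759.9 CPM in wild-type and 411, 510.2 and 411 CPM in knockin libraries (log2 fold change -0.34, adjusted p = 0.272), so that the value rested on the third wild-type library. Homer1, a postsynaptic scaffold with an activity-induced short form, was at 271, 193 and 241 CPM against 321, 316 and 274 CPM, without overlap (log2 fold change 0.37, adjusted p = 0.155). None of 18 clock genes, 16 glucocorticoid-responsive genes, 8 noncoding RNAs and 3 metallothioneins passed.

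Markers of the other cells of the tissue gave no call except Nrgn, which stands on the list of cortical excitatory neurons. Of 12 genes each, 6 oligodendrocyte, 8 astrocyte, 9 microglial, 9 endothelial and 11 mural or meningeal markers were above 0. Slc1a2, the main astrocytic glutamate transporter, was at 821, 824 and 835 CPM in wild-type and 1054, 1081 and 905 CPM in knockin libraries, without overlap (log2 fold change 0.29, adjusted p = 0.147). Summed levels were 15.6 to 29.99 CPM against 25.3 to 31.6 CPM for endothelial and 28.9 to 38.3 CPM against 31.6 to 55.7 CPM for mural and meningeal markers, which overlapped. Of 7 markers of oligodendrocyte precursors 4 were below 0 and none passed. Among them, Olig1 was at 42.4, 64.6 and 50.6 CPM in wild-type and 39.0, 37.0 and 28.1 CPM in knockin libraries, without overlap (log2 fold change -0.60, adjusted p = 0.139). The oligodendrocyte markers Mbp and Ugt8a also did not overlap, with log2 fold changes of -0.23 and 0.39 (adjusted p = 0.389 and 0.446). Choroid plexus markers summed to 96.9 to 112 CPM in wild-type and 119 to 130 CPM in knockin libraries, which did not overlap. Most of this was Enpp2, an enzyme that oligodendrocytes also make, at 93.0, 93.6 and 78.6 CPM against 105.5, 103.9 and 115.9 CPM. Without Enpp2 they summed to 10.1 to 18.9 CPM against 13.7 to 14.7 CPM, which overlapped. Of 7 ependymal markers 6 were below 0, and of the red blood cell genes 1 was tested. The X-inactivation and Y-linked genes summed to 46.6 to 76.3 CPM in wild-type and 39.8 to 113 CPM in knockin libraries. The sexes within each pool are not given, and this sum does not show them.

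**Figure D4:**
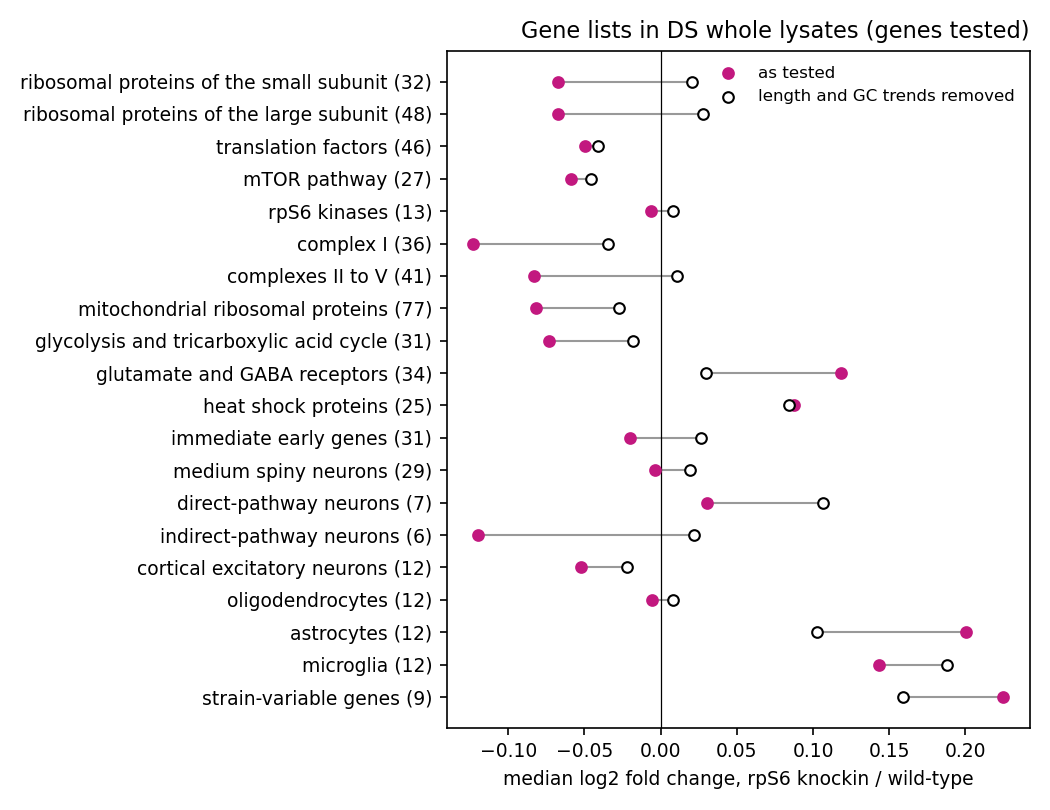
Median log2 fold change (knockin over wild-type) of the tested genes of the main gene lists, with the number of genes in brackets, as tested (filled) and after the trends on transcript length and GC content were removed (open). The medians of the ribosomal lists move from -0.07 to 0.02 and 0.03, and the median of the receptor list from 0.12 to 0.03.

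Beyond the 5 genes that rose, the naming rule took 5 more genes with higher values in the knockin mice, 50 or more reads on average and non-overlapping genotypes, which missed the threshold. Chl1, a neural cell adhesion protein, was at 64.7, 67.0 and 68.9 CPM in wild-type and 100.04, 93.7 and 97.0 CPM in knockin libraries. The values within each genotype were tight (log2 fold change 0.54, SE 0.12, adjusted p = 0.0509). Rimbp2, a presynaptic active zone protein, and Cacna1e, a pore subunit of R-type calcium channels, had log2 fold changes of 0.60 and 0.46 (adjusted p = 0.0509 and 0.0677). The noncoding 1700020I14Rik and Rasal2, a Ras GTPase-activating protein, had log2 fold changes of 0.62 and 0.47 (adjusted p = 0.0918 and 0.105).

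The 19 genes were then read in the other libraries, of which the DS polysomal fractions come from the same lysates. In the DS polysomal fractions 16 of the 19 had a fold change of the same sign, 8 at an unadjusted p under 0.05, and 1, Cwc22, past the adjusted threshold. In the Acb lysates 13 had the same sign, 2 at an unadjusted p under 0.05, and none passed. In the Acb polysomal fractions 16 had the same sign, 4 at an unadjusted p under 0.05, and none passed. The shares of all tested genes were not counted in these libraries, so that these counts have no background beside them. The GC-richest quintile, which held 12 of the 14 genes that fell, also had a median of -0.11 in the DS polysomes. Nrgn had a log2 fold change of -0.46 in the DS polysomes and 0.12 in the Acb lysates. Hspa5 had 0.06 and -0.28, and Gria2 0.37 and 0.00.
The difference of the genotype effect between regions was tested directly in the 12 lysates. It passed for 1 of 16364 genes (0.00611%), with 837 (5.11%) at an unadjusted p under 0.05. For the 19 genes it passed in none, with a lowest adjusted p of 0.273, reached by Nrgn (difference of -0.60) and Hspa5 (0.81) among others. With the replicate number as a block 6 genes passed, among them Nrgn, Hspa5 and Cox8a, although the numbers do not pair the DS lysates. Hspa5 also passed without a filter and without Acb wild-type replicate 3 or DS wild-type replicate 3, and Nrgn without Acb knockin replicate 1. The gene that passed in the unblocked fit was Kif3a, a motor subunit of kinesin-2, which had a fold change of -0.30 in the DS, at 538, 572 and 699 CPM in wild-type and 491, 514 and 460 CPM in knockin libraries. In the Acb it was 0.62, at 419, 595 and 684 CPM against 1044, 796 and 764 CPM. The genotypes did not overlap in either region, and the effect was lower in the DS by 0.92 (SE 0.16, adjusted p = 0.00848). The call was lost without Acb wild-type replicate 1, Acb knockin replicate 1, DS wild-type replicate 3 or DS knockin replicate 3, with adjusted p of 0.0750, 0.120, 0.0596 and 0.0503.
The difference of the genotype effect between whole lysate and heavy polysomes of the DS passed for 0 of 16544 genes (0%), with 811 (4.9%) at an unadjusted p under 0.05 and 0 adjusted calls by DESeq2. Without wild-type polysome replicate 3 the count was 12. By the study's methods, lysate and polysomes of a sample come from the same mice, and the replicate numbers were taken to match them. The deviations of such pairs did not correlate more than those of pairs with other numbers. With that pairing as a block, 6 genes passed, Pcp4, Mt1, Cox8a, Tmsb4x, Tmsb10 and Ramp1, and in all 6 the fold change was lower in the lysate. Cox8a had a log2 fold change of -0.73 in the lysate and 0.34 in the polysomes, a difference of -0.99 in the blocked fit (adjusted p = 0.0424). Pcp4, a calmodulin-binding peptide of striatal neurons, differed by -0.93 and the metal-binding Mt1 by -1.10 (adjusted p = 0.00572 for both). Without the block the adjusted p of the 6 genes was 0.514 to 0.660.

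Cwc22 is one of the genes whose copy number is known to differ between laboratory mouse strains. In the DS polysomes its level was 26.8, 15.1 and 18.5 CPM in wild-type and 55.7, 61.2 and 59.4 CPM in knockin libraries. In the Acb lysates it was 24.0, 80.9 and 24.4 CPM against 62.5, 76.0 and 75.8 CPM, and in the Acb polysomes 18.4, 56.6 and 15.3 CPM against 68.9, 66.3 and 71.8 CPM. The wild-type library that stood above the other two was replicate 1 in both DS sets and replicate 2 in both Acb sets, and in the Acb lysates it was above every knockin library.
Of 9 tested genes listed for copy number or expression differences between strains 6 were above 0, with a median of 0.22, and Cwc22 was the 1 call. At an unadjusted p, Cwc22, Glo1, Ide and Gabra2 were higher and none was lower, while 4.24% of all tested genes were higher and 4.83% lower. Without Cwc22 the list summed to 403, 399 and 415 CPM in wild-type and 519, 446 and 454 CPM in knockin libraries, which did not overlap. Glo1, the glyoxalase that clears methylglyoxal, was at 123.5, 123 and 103.5 CPM against 180, 141 and 143 CPM (log2 fold change 0.41, adjusted p = 0.147). The part of the strain background in these values was not tested.
Acer2, a ceramidase of the Golgi, lies at chr4:86874348-86932524, with 16980 bases between it and the start of Rps6, and was chosen after its values were seen. In the DS lysates it was at 7.15, 6.93 and 6.95 CPM in wild-type and 1.40, 3.60 and 3.57 CPM in knockin libraries, or 90 to 145 against 26 to 66 reads, a log2 fold change of -1.30 (SE 0.44, adjusted p = 0.267). In the DS polysomes it was at 25.1, 14.6 and 14.7 CPM against 6.51, 6.93 and 4.63 CPM, in the Acb lysates at 9.55, 8.27 and 9.81 CPM against 5.55, 0.305 and 3.31 CPM, and in the Acb polysomes at 19.7, 19.8 and 27.4 CPM against 8.57, 7.07 and 2.35 CPM. The knockin libraries were below the wild-type libraries in each of the 4 sets. Of the 42 other genes tested within 10 Mb of Rps6, 5 (11.9%) had an unadjusted p under 0.05 in the DS lysates, against 9.07% of all tested genes. These were Acer2, Snapc3, Psip1, Klhl9 and Mtap, of which Snapc3 and Psip1 were higher, and none passed the adjusted threshold. The knockin allele and the chromosome around it cannot be told apart in these mice.

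**Figure D5:**
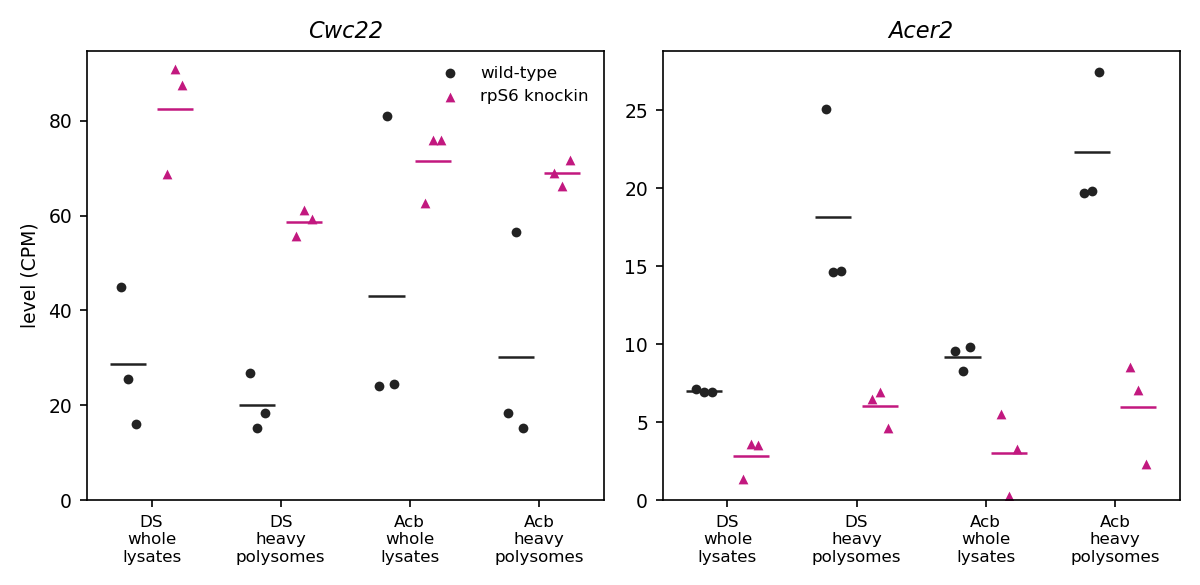
Levels of Cwc22 and Acer2 (CPM, linear axes from 0) in every library of the DS whole lysates, DS polysomal fractions, Acb whole lysates and Acb polysomal fractions, with circles for wild-type, triangles for knockin and a bar at the mean of the 3 libraries. Cwc22 has 1 raised wild-type library in each set, replicate 1 in the DS and replicate 2 in the Acb, and Acer2 is lower in every knockin library than in any wild-type library of its set.

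The 20 genes that the study names from the DS polysomal fractions of these same lysates were read in the lysates as well. The list was chosen on those fractions and is no independent evidence of a direction. In the lysates 10 were above and 10 below 0, with a median log2 fold change of 0.00 against 0.88 in the polysomes, and Cwc22 was the 1 that passed. Pebp1, a Raf kinase inhibitor protein, was at 297, 368 and 305 CPM in wild-type and 247, 234 and 245 CPM in knockin libraries, without overlap (log2 fold change -0.42, adjusted p = 0.0568). Pcp4 was at 1227, 1042 and 1101 CPM against 1048, 1104 and 1020 CPM, and Mt2, a metallothionein, at 62.1, 67.2 and 46.3 CPM against 58.8, 56.5 and 55.9 CPM. Both overlapped, with log2 fold changes of -0.09 and -0.04. Tmem38b, an intracellular cation channel, was at 84.7, 120.3 and 111 CPM against 132.9, 111 and 114 CPM (log2 fold change 0.18, adjusted p = 0.707). Ecscr, an endothelial surface protein, was below 1.5 CPM in all 6 libraries, and its log2 fold change of 0.16 had an SE of 1.34.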

How the data were processed

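The table held raw read counts per gene, deposited by the authors. Per the paper's methods and the submitters' processing notes, stranded poly(A) libraries were sequenced over several runs, aligned to mm10 with TopHat2 2.0.13 and Bowtie2 2.2.3, filtered to at most 3 mismatches and counted on the opposite strand with HTSeq 0.6.1p1 in union mode. Counting used strand, and genes with near-identical copies remain uncertain.

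From these counts, genes with at least 15 reads over the libraries of a comparison were fitted with edgeR 4.0.16 (TMM, legacy quasi-likelihood F test, R 4.3.3) by genotype alone. Genotype by region was fitted in the 12 lysates and genotype by kind of RNA in the 12 DS libraries. Adjusted p-values are Benjamini-Hochberg values over all genes tested, with a cutoff of 0.05. CPM are scaled by TMM, and means are given with the SD of 3 replicates. No pair of replicates was a duplicate. Transcript lengths and GC content came from GENCODE M21, gene positions from RefSeq GRCm38.p6.

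The members, the 35 gene lists and the rule for named genes were chosen with earlier results of these data known. The rule names Rps6, every gene called (up to 30), the 10 genes per direction with the lowest p, 50 or more reads on average and non-overlapping genotypes, the 2 lowest p and 2 highest levels of each list, the genes the study names in the DS polysomal fractions, Ecscr and Tmem38b, and up to 5 genes called in another comparison. The text gives only part of the genes that the rule took. Some genes named with a count at an unadjusted p are outside it, such as Rps16, Rps23, Fau, Ide and Gabra2.

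By the methods, lysate and polysomes of a sample share mice, and that the replicate numbers match them was assumed. The correlation of their deviations was -0.06 to 0.04 over the 6 pairs of the same number. Over the pairs of other numbers within a genotype it was -0.06 to 0.08. Alternatives were DESeq2 1.42.0, its size factors, limma-voom (limma 3.58.1), other filters, exclusion of Bc1, robust fitting, a replicate block, one fit of all lysates, removal of the length trend and leaving out each library. Removal of the GC trend, of both trends, the bias-adjusted and the likelihood ratio test were chosen after seeing the data. The main fits of genotype in the DS lysates, genotype by region and genotype by kind of RNA were tested on simulated data with known changes. For the DS lysates, so were DESeq2, limma-voom, the replicate block and removal of the length trend or of both trends. The other settings were not tested in this way.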

Additional observations from a re-analysis of the deposited data

Results flagged for a closer look

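Kif3a differed between regions in its response to genotype by a test of the difference itself. The log2 fold change was -0.30 in the DS lysates and 0.62 in the Acb lysates, a difference of -0.92 (SE 0.16, adjusted p = 0.00848, edgeR). The adjusted p was 0.120 without Acb knockin replicate 1, whose 1044 CPM stood above the 796 and 764 CPM of the other Acb knockin libraries. It was 0.0750 without Acb wild-type replicate 1, 0.0596 without DS wild-type replicate 3, 0.0503 without DS knockin replicate 3, 0.152 with the stricter filter of edgeR and 0.530 with DESeq2.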

How the results depend on the processing

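For genotype in the DS lysates (19 calls), 95 genes passed with DESeq2, 44 higher and 51 lower. It shared 14 of the 19 and gave 3 of them no adjusted p. DESeq2 gave no adjusted p to 10889 of the 15601 genes, so that its count was adjusted over fewer genes. Without a filter 66 passed, with limma-voom 30 and with the filterByExpr filter 2 (Cwc22 and Nrgn). With the length trend removed 8 passed, with the GC trend 3 and with both 2. In a fit of all 12 lysates 1 passed. Leaving out 1 library gave 1 to 56 calls, and 1 to 9 with both trends removed. The replicate numbers did not pair these libraries, since the correlations of deviations were 0.037, -0.025 and -0.026. The replicate block gave 71 calls (22 higher and 49 lower), which included all 19. For genotype by region (1 call), DESeq2 and filterByExpr gave 0, no filter 3, the replicate block 6 (Bc1, Cox8a, Hspa5, Kif3a, Nrgn and Tmem38b) and leave-outs 0 to 4. For genotype by kind of RNA (0 calls), no filter gave 5, the replicate block 6 and leave-outs 0 to 12, with 12 without wild-type polysome replicate 3. No call changed sign under these settings. Cwc22 lost its call with robust fitting alone (adjusted p = 0.367). The cause was not tested. Depth limits Ecscr and Acer2, at under 150 reads in a library.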
